A study of Homo sapiens with 18 samples.

Results

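Arsenite changed the RNA bound in a TIAR and in a G3BP1 immunoprecipitate of U251-MG cells, and the report gives the difference between those changes. The stress change of a transcript within an immunoprecipitate is its mean log2 signal after arsenite minus its mean without stress. The interaction is the stress change in the TIAR immunoprecipitate minus the stress change in the G3BP1 immunoprecipitate. The contrast uses 12 of the 18 exon arrays of the series, chosen by the antibody and the treatment in their labels, as 4 groups of 3 arrays. All cells were U251-MG, an established human astrocytoma line. In the stressed groups (labelled Tial Stress and G3BP1 Stress) they received 500 µM arsenite, and in the non-stress groups the vehicle DMSO, with RNA taken 30 min later in each case. Each RNA immunoprecipitation (RIP) used an antibody to TIAR, which some labels write as Tial or TIAL, or an antibody to G3BP1. The other 6 arrays hold input RNA of stressed and unstressed cells, 3 of each. They enter the fit as further groups and are given beside the RIP values.

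TIAR, the product of TIAL1, and G3BP1 are RNA-binding proteins found in stress granules. Arsenite binds protein thiols, causes oxidative stress and leads to phosphorylation of the initiation factor eIF2α, which stops most translation and frees mRNAs from ribosomes. Those mRNAs and their bound proteins gather in granules, for which G3BP1 acts as a core protein. TIAR binds U-rich and AU-rich stretches of RNA and is also present in the nucleus, where it takes part in splicing. G3BP1 is mainly cytoplasmic. A RIP signal reflects the amount of a transcript in the lysate, the share of it that the antibody brings down and the rest of the RNA recovered with it. These parts cannot be told apart on the arrays, nor can fewer cells and less RNA per cell.

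The third G3BP1 control array stood apart from the other 11 RIP arrays. Its mean correlation with its own group was 0.980, against 0.987 to 0.995 on the others, and its median signal was 7.80, where the other G3BP1 arrays had medians of 7.97 to 8.07. The medians of the 12 RIP arrays ran from 7.75 to 8.07. Because that array enters the contrast, results that rest on it are given with and without it. Of 15 astrocyte and glioma markers, 10 lay above the median signal in each of the 4 RIP groups, as did 6 or 7 of 12 epithelial, 5 of 14 neuron, 1 or 2 of 7 oligodendrocyte, 1 or 2 of 16 myeloid and 1 or 2 of 13 blood and endothelial markers. No label or table gives a batch, and the labels call the arrays biological replicates without saying how cultures were kept separate.

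The stress change differed between the RIPs for 2994 of 22011 transcript clusters, the array's unit for a gene (13.6% at an adjusted p under 0.05, limma with Benjamini-Hochberg adjustment). A transcript cluster is called where it passes that threshold. The interaction was higher for 1112 (5.05%) and lower for 1882 (8.55%). In this report, a move towards TIAR is short for an interaction above 0, and a move towards G3BP1 for one below 0. No transfer of RNA between the proteins was measured. The median size of a called interaction was 0.79 on the log2 scale, and the values ran from -3.17 to 2.81. Sizes of at least 1 were reached by 356 called higher and 444 called lower. The balance depended on the array that stood apart and on scaling. Interactions above 0 made up 37.1% of the calls with all arrays and 54.4% without the third G3BP1 control array (2194 higher, 9.97%, and 1841 lower, 8.36%). Array weights put that proportion at 52.9%, cyclic loess at 49.7%, quantile normalization at 45.6% and median centring at 42.5%.

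A minority of the 2994 calls were a larger or smaller change in the same direction. The changes in the RIPs had opposite signs in 2469 of them (82.5%), compared with 49.9% of all transcript clusters. A called interaction favours opposite signs by its construction, so that share is a description. Across all transcript clusters the TIAR and G3BP1 stress changes correlated at r = 0.067 (Spearman 0.004). Without the third G3BP1 control array the values were 0.049 and 0.008. In the single RIPs, 6.15% of transcript clusters rose and 5.71% fell in TIAR, and 10.4% rose and 4.08% fell in G3BP1. Of the 1112 called higher, 415 rose in TIAR with no call in G3BP1, 358 fell in G3BP1 with no call in TIAR, and 147 had no call in either. Of the 1882 called lower, 776 rose in G3BP1 with no call in TIAR, 581 fell in TIAR with no call in G3BP1, and 219 had no call in either. Opposite directions in which each single change also passed the test were found for 165 transcript clusters that rose in TIAR and fell in G3BP1 (0.75%; 0.562% of genes), and for 264 that fell in TIAR and rose in G3BP1 (1.2%; 1.39% of genes). Stressed and control arrays did not overlap in either RIP for 164 of the 165 and 263 of the 264, where 12.8% of all transcript clusters showed this (31.4% in TIAR and 26.7% in G3BP1 taken singly). The same arrays made the calls, so nothing is read from that count.

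**Figure D1:**
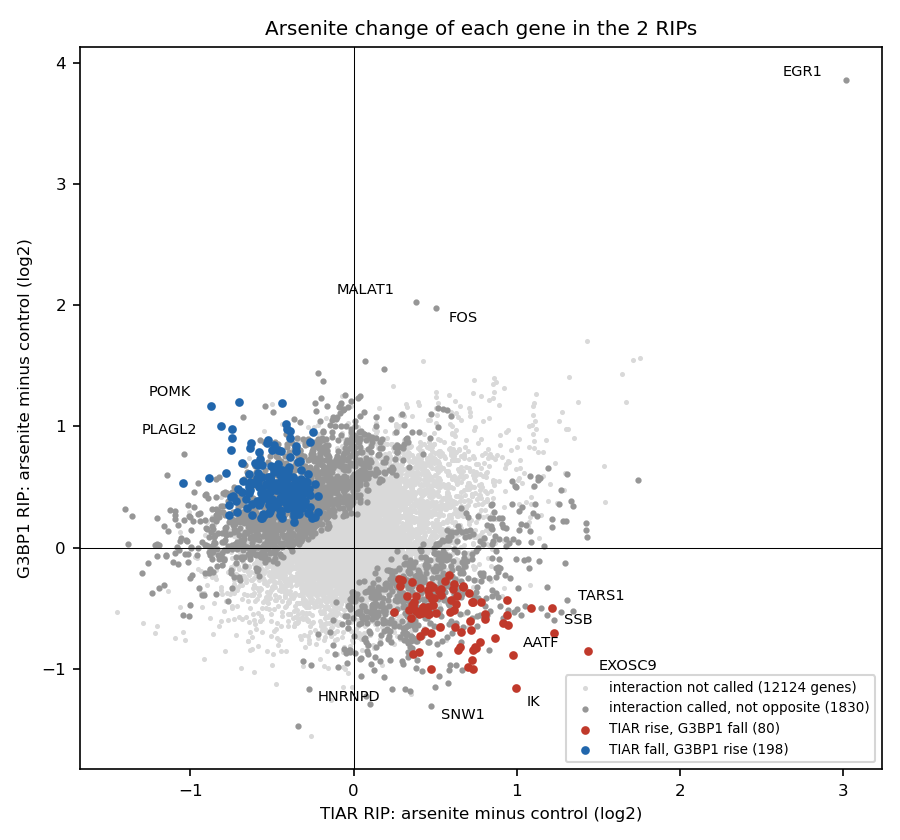
Stress change in the TIAR RIP (horizontal axis, log2) against stress change in the G3BP1 RIP (vertical axis, log2) for 14232 genes, each shown by its brightest transcript cluster. The 80 genes in red rose in TIAR and fell in G3BP1, the 198 in blue did the reverse, dark grey marks other called interactions, and EGR1 lies apart at the upper right because it rose in both RIPs.

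The 165 transcript clusters that rose in TIAR and fell in G3BP1 carried transcripts that started higher in the G3BP1 RIP. Their median signal went from 10.15 to 10.75 in TIAR and from 12.08 to 11.37 in G3BP1, so the distance between the RIPs narrowed with arsenite. The median stress change was 0.57 in TIAR and -0.54 in G3BP1, and the median interaction was 1.13. These medians describe transcripts chosen by those very changes. A single gene symbol was available for 80 of them as the gene's brightest transcript cluster, several symbols for 13 and none for 72.

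EXOSC9, a core subunit of the RNA exosome, had the largest interaction of the genes in this class. Its transcript cluster, 2741768, had signals of 7.92, 7.78 and 7.67 on the TIAR control arrays and of 9.28, 9.09 and 9.32 after arsenite. In G3BP1 it went from 11.57, 11.59 and 11.38 to 10.69, 10.84 and 10.46. Every stressed TIAR array was above every control, and every stressed G3BP1 array was below. The changes were 1.44 ± 0.14 and -0.85 (adjusted p = 0.00101), and the interaction was 2.29 ± 0.20 (SE; adjusted p = 9.05e-06, limma). Input showed no call (0.21).

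IK, which encodes the spliceosome protein RED (transcript cluster 2831932), was low in the TIAR RIP of control cells at 7.03, 6.38 and 6.75 and reached 7.76, 7.81 and 7.58 after arsenite. In the G3BP1 RIP it dropped from 10.50, 10.36 and 10.05 to 9.21, 9.13 and 9.11. The groups did not overlap in either RIP, and the interaction was 2.15 ± 0.23. AATF, a nucleolar protein of small ribosomal subunit assembly (3719362), had the smallest error of the leading genes. It went from 8.03, 7.97 and 7.81 to 8.91, 8.87 and 8.95 in TIAR and from 11.91, 11.81 and 11.54 to 10.88, 10.85 and 10.88 in G3BP1. The lowest AATF control array in G3BP1 is the one that stood apart, and the interaction was 1.86 ± 0.13 with it and 1.97 ± 0.11 without it. SSB, the La protein that binds the 3′ ends of new RNA polymerase III transcripts (2514566), went from 10.24, 10.19 and 9.98 to 11.35, 11.59 and 11.15 in TIAR. In G3BP1 it went from 12.59, 12.25 and 12.96 to 11.82, 12.13 and 11.76, a clear separation in TIAR and a narrow one in G3BP1. The SSB interaction was 1.92 ± 0.22.

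LARS1, the cytosolic leucyl-tRNA synthetase (2879927), rose in TIAR from 9.12, 8.87 and 8.61 to 9.75, 9.32 and 9.73. It fell in G3BP1 from 11.32, 11.21 and 10.78 to 10.28, 10.33 and 10.18. The groups were apart in both RIPs, and the interaction was 1.57 ± 0.29 (adjusted p = 0.00195, limma). HSPH1, a large heat shock protein that serves as a nucleotide exchange factor for Hsp70 (3508330), rose from 10.69, 10.48 and 10.34 to 11.34, 11.27 and 11.49 in TIAR. It fell from 12.28, 12.31 and 11.99 to 11.54, 11.32 and 11.49 in G3BP1, again without overlap. After arsenite HSPH1 stood at nearly the same signal in the RIPs, with group means of 11.37 in TIAR and 11.45 in G3BP1.

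The other genes that led this class were MTREX, the helicase that feeds RNA to the nuclear exosome (interaction 1.73 ± 0.14), the histone chaperone NASP (1.68 ± 0.24) and TAF15, an RNA-binding protein (1.58 ± 0.17). The mitochondrial enzyme OAT (1.56 ± 0.30), the ribosome biogenesis gene PAK1IP1 (1.55 ± 0.22) and the nuclear pore gene NUP107 (1.39 ± 0.30) completed them. All 12 leading genes kept a called rise in TIAR and fall in G3BP1 without the third G3BP1 control array. The class also held the ribosome assembly genes NOP2, RRS1, RRP12, UTP14A and MPHOSPH10, the exosome gene EXOSC10 and the nuclear pore genes NUP88 and NUP214. These were picked out after their values were seen. EIF3B (interaction 0.84 ± 0.14), a subunit of the initiation factor that binds the small ribosomal subunit, and the DNA synthesis gene RRM1 (1.49 ± 0.24) belonged to it as well.

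The 264 transcript clusters that fell in TIAR and rose in G3BP1 started from the opposite position, higher in the TIAR RIP. Their median signal went from 11.04 to 10.51 in TIAR and from 9.96 to 10.55 in G3BP1, so the class medians were almost the same after arsenite. Single genes could stay apart. After arsenite SPRING1 had group means of 11.77 in TIAR and 10.85 in G3BP1, and POMK of 10.60 and 10.42. The median stress change was -0.45 in TIAR and 0.47 in G3BP1, with a median interaction of -0.96. As in the first class, these medians describe transcripts chosen by those very changes. A single symbol was available for 198 of them as the gene's brightest transcript cluster, several for 37 and none for 27.

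POMK, a kinase that phosphorylates mannose on dystroglycan (3096545), had the largest interaction of the genes in this class. It fell in TIAR from 11.53, 11.51 and 11.36 to 10.74, 10.62 and 10.43. It rose in G3BP1 from 9.43, 9.46 and 8.86 to 10.45, 10.39 and 10.41. The stressed TIAR and stressed G3BP1 arrays overlapped, whereas the control arrays of the RIPs lay far apart. The interaction was -2.04 ± 0.23 (adjusted p = 5.81e-05, limma), and -1.84 ± 0.19 without the third G3BP1 control array, the lowest of its group.

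PLAGL2, a zinc finger transcription factor (3902682), went from 10.39, 10.07 and 10.03 to 9.47, 9.22 and 9.36 in TIAR and from 7.27, 7.47 and 6.72 to 8.36, 8.05 and 8.07 in G3BP1. Neither RIP showed overlap, and the interaction was -1.82 ± 0.24. SPRING1, a Golgi protein of the sterol-sensing SREBP pathway (3473331), had closely spaced TIAR control arrays. It went from 12.54, 12.52 and 12.51 to 11.66, 11.85 and 11.81 in TIAR and from 10.21, 10.12 and 9.81 to 10.90, 10.91 and 10.75 in G3BP1. The SPRING1 interaction was -1.55 ± 0.15. EIF4EBP2, a repressor that binds the cap-binding factor eIF4E (3250699), had the larger share of its difference in G3BP1. It went from 13.12, 12.85 and 12.89 to 12.45, 12.50 and 12.60 in TIAR and from 9.88, 9.92 and 9.55 to 11.14, 10.91 and 10.89 in G3BP1. No EIF4EBP2 groups overlapped, and the interaction was -1.63 ± 0.15.

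LINC00052, a long noncoding RNA, had an interaction of -1.90 ± 0.27, TMTC1, an O-mannosyltransferase, of -1.73 ± 0.32, and NREP of -1.64 ± 0.25. TET1, the enzyme that oxidises methylcytosine in DNA, was at -1.49 ± 0.27. The kinase UHMK1 (-1.46 ± 0.21), ZNF652 (-1.40 ± 0.22), RASSF8 (-1.38 ± 0.18), the methyl-CpG-binding domain gene MBD6 (-1.30 ± 0.11) and the deubiquitinase USP12 (-1.25 ± 0.13) followed. Of these 12 leading genes, ZNF652 lost its rise in G3BP1 without the third G3BP1 control array (adjusted p = 0.0504, limma), and the other 11 kept both calls. Members picked out after their values were seen include the transcription factors ELK1, ELK3, FOSL2, RUNX1, FOXM1 and MYBL2 and the signalling genes AKT2, MKNK2, MAPKAPK2, IGF1R and RHOB. SRF, the factor that partners ELK1 at serum response elements (interaction -0.66 ± 0.10), JUND (-0.81 ± 0.12) and the cytokine IL11 (-1.24 ± 0.16) were in it too. So were ZFP36L2 (-0.86 ± 0.10), which binds AU-rich elements and promotes decay.

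**Figure D2:**
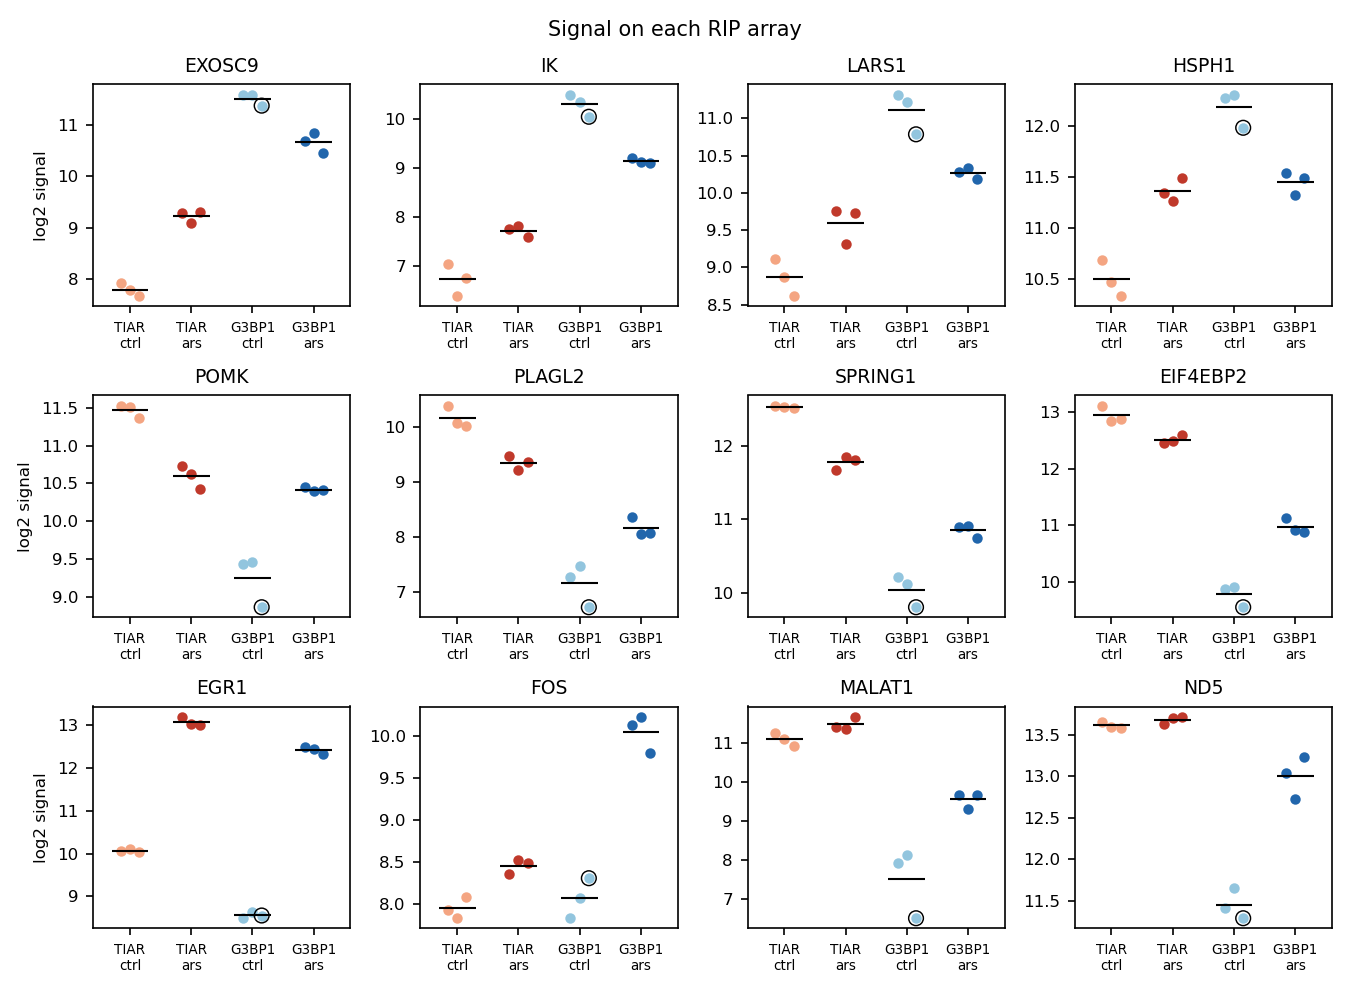
Log2 signal (vertical axes, each panel with its own range) of 12 genes on the 12 RIP arrays, with 3 points a group and a bar at the group mean; ctrl is DMSO, ars is arsenite, and the third G3BP1 control array is ringed. In the top row the TIAR groups rise and the G3BP1 groups fall, in the middle row the reverse holds, and in the bottom row EGR1 and FOS rise in both RIPs while MALAT1 and ND5 passed the test for a rise in G3BP1 and not in TIAR.

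The DNA just upstream of these genes was set beside the classes, a feature looked at after the values were seen. The 250 bases before the start of IK, AATF, PLAGL2 and SPRING1 are shown as windows of 2 leading genes from each class. They are taken from RefSeq on GRCh38.p14, and the strand is that of the gene. Capitals mark GGGCGG, or its reverse complement CCGCCC, the core of the GC box that Sp1-like factors bind; overlapping copies are merged in the capitals. IK lies at chr5:140647579-140647828 (plus strand), AATF at chr17:36948704-36948953 (plus), PLAGL2 at chr20:32207744-32207993 (minus) and SPRING1 at chr12:116738070-116738319 (minus).
IK: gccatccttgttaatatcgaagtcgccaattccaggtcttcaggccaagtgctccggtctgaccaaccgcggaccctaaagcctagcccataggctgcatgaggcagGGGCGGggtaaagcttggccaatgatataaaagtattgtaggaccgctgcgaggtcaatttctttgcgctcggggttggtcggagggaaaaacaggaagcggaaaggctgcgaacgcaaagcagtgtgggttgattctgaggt
AATF: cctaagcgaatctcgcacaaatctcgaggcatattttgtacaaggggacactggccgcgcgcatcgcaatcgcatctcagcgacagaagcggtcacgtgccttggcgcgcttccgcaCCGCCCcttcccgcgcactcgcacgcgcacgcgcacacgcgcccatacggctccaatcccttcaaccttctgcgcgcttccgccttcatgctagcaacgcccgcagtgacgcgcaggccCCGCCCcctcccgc
PLAGL2: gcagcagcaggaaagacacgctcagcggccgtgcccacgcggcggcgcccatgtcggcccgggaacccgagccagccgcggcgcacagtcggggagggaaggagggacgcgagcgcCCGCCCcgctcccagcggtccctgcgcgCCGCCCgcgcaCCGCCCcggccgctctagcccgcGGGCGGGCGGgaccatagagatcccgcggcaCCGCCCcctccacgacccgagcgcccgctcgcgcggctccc
SPRING1: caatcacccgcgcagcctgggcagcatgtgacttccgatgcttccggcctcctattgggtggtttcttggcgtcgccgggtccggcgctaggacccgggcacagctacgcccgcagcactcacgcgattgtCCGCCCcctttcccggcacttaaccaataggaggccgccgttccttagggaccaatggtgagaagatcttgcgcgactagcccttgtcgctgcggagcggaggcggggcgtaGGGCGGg

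The IK window holds 1 GC box and is 54% G or C, the AATF and SPRING1 windows hold 2 and are 65.6% G or C, and the PLAGL2 window holds 6 and is 80% G or C. A window was matched for 68 of the 80 genes that rose in TIAR and fell in G3BP1 and for 165 of the 198 in the reverse class. The median G or C content was 61.4% in the first class and 70.8% in the reverse class, with 65.6% for the genes at or above the median RIP signal. At least 1 GC box was present in 58.8% of the first class, 79.4% of the reverse class, 69.9% of the genes at or above the median signal and 42.6% of all 35116 windows in the table. The classes thus lay on either side of the genes at or above the median signal in both measures. Over all measured genes with a window the values were 63.2% and 58.4%, so the GC box share of the first class was near theirs. Genes with any called interaction were less far apart. They had 62.8% G or C and 67.0% with a GC box where higher, and 68.8% and 73.7% where lower. A match is a description of the letters, and no test was made.

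The input contrast uses no RIP array, though the input arrays add to the estimate of spread behind the calls. Of the 264 transcript clusters that fell in TIAR and rose in G3BP1, 229 (86.7%) fell in input and 0 rose, where 11.2% of all transcript clusters fell (limma, adjusted p under 0.05). At an unadjusted p under 0.05, 249 fell and 0 rose. Their median input change was -0.50. Most of that goes with the fall in TIAR: of all 1256 transcript clusters that fell in TIAR, 77.5% fell in input, and of the 1614 that rose in G3BP1 with no call in TIAR, 20.9% did. The class was bright, with a median RIP signal of 10.48 against 7.93 for all transcript clusters. Falls in input were more common among bright genes: 1792 of the 7782 genes at or above the median RIP signal fell. So POMK (-0.85), PLAGL2 (-0.85) and SPRING1 (-0.85) rose in the G3BP1 RIP while they fell in the lysate. The count was 263 of 294 without the third G3BP1 control array, where 16.9% of all transcript clusters fell in input.

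The class that rose in TIAR and fell in G3BP1 held some transcripts that rose in input. Of its 165 transcript clusters 35 rose in input (21.2%, against 2.52% of all transcript clusters) and 4 fell, and the median input change was 0.16. At an unadjusted p under 0.05, 63 rose and 7 fell. Among all 1353 that rose in TIAR, 22.6% rose in input, so the class did not stand out from them. Of the leading genes, IK (0.61) and MTREX (0.44) rose in input, and AATF (-0.17) and EXOSC9 (0.21) were not called. Across the 22011 transcript clusters the G3BP1 stress change and the input change correlated at r = -0.016 (Spearman -0.078), against 0.494 (Spearman 0.415) for TIAR and input. The G3BP1 and input pair gave 0.146 (Spearman 0.115) without the third G3BP1 control array. The first input arsenite array also stood apart, and without both such arrays 383 of the 474 transcript clusters in the class that fell in TIAR and rose in G3BP1 fell in input (80.8%, against 13.4% of all).

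**Figure D3:**
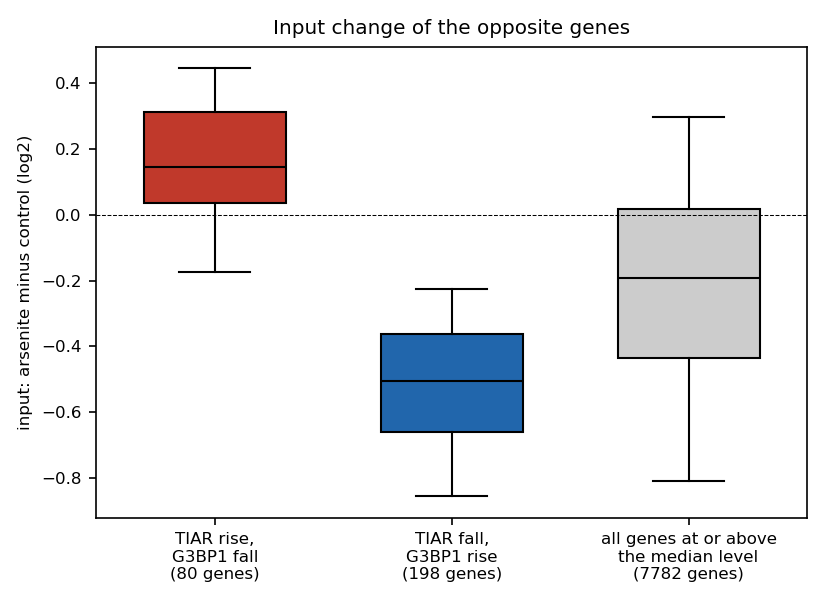
Input change with arsenite (vertical axis, log2) of the 80 genes that rose in TIAR and fell in G3BP1, the 198 that did the reverse and the 7782 genes at or above the median RIP signal. Boxes span the quartiles with a line at the median and whiskers reach the 5th and 95th percentiles; the box of the reverse class lies wholly below 0.

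Gene lists were read against the share of all 14232 genes with a called interaction, 4.6% higher and 10.2% lower, and against their median interaction of -0.03. For the 7782 genes at or above the median RIP signal the shares were 7.88% and 17.0% and the median -0.12. Without the third G3BP1 control array the shares of all 14232 genes were 10.2% and 9.84%. Of the 7782 genes, 1265 were then called higher and 1259 lower. Members are counted over those measured, and no test of a list as a whole was made. At an unadjusted p under 0.05 (limma), lists other than markers with 0 called lower had 0 lower members (tRNA synthetases, hnRNP, glycolysis and TCA, replication), 1 (heat shock), 2 (repair), 3 (splicing) or 4 (cytosolic ribosome). Lists with 0 called higher had 0 to 2 higher members. The lists below that moved towards TIAR kept a median above 0, and those that moved towards G3BP1 a median below 0, under median centring, quantile normalization and cyclic loess.

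The tRNA synthetases, which charge tRNAs with their amino acids, had the largest median of any list of 10 or more measured genes. Of 23 measured, 17 were called higher and 0 lower, with a median interaction of 0.66 (0.83 without the third G3BP1 control array). In single RIPs 12 of the 23 rose in TIAR (background 6.15% of genes) and 8 fell in G3BP1 (4.12%), while the median input change was -0.03. FARSA, a subunit of the phenylalanine enzyme, was precise. It went from 10.15, 10.10 and 10.24 to 10.79, 10.95 and 10.86 in TIAR and from 12.92, 12.90 and 12.76 to 12.50, 12.54 and 12.43 in G3BP1. The FARSA groups were well apart in each RIP, with an interaction of 1.08 ± 0.10. HARS1 (1.34 ± 0.20) changed in both RIPs, whereas NARS1 (1.07 ± 0.15) fell in G3BP1 by 0.96 and had a TIAR change of 0.11 that was not called.

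Chaperonins and heat shock proteins, which fold other proteins, had 14 of 29 called higher and 0 lower, with a median of 0.53. DNAJC7 (1.24 ± 0.14), HSP90AA1 (1.07 ± 0.20) and DNAJA1 (0.94 ± 0.15) rose in TIAR, and their G3BP1 changes of -0.17, -0.41 and -0.31 were not called. The falls of HSP90AA1 and DNAJA1 in G3BP1 were called when the third G3BP1 control array was left out. Glycolysis and TCA cycle genes had 16 of 33 higher and 0 lower, with a median of 0.48. ENO1, the glycolytic enolase, rose in TIAR from 11.77, 11.65 and 11.54 to 12.85, 12.80 and 12.72 and changed by -0.11 in G3BP1, not called. PFKP (0.92 ± 0.10) and OGDH (0.86 ± 0.14) moved in opposite directions in the RIPs, and the cytosolic aconitase ACO1, which also binds iron-responsive elements as IRP1, fell in G3BP1 by 0.76.

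Splicing factors had 20 of 46 called higher and 0 lower, with a median of 0.50. CDC5L (1.58 ± 0.25) and SF3B2 (0.82 ± 0.13) rose in TIAR and fell in G3BP1, and TRA2B (0.81 ± 0.13) fell in G3BP1 with no call in TIAR. The hnRNP proteins, abundant nuclear RNA-binding proteins, had 11 of 24 higher and 0 lower, with a median of 0.43. Their difference lay mainly on the G3BP1 side, where 14 of 24 fell and 3 rose, against 4 that rose in TIAR. HNRNPD, the AU-rich element binding protein AUF1, had G3BP1 signals of 13.42, 13.40 and 13.26 that fell to 12.23, 12.23 and 12.13. Its TIAR signals of 11.36, 11.34 and 11.44 went to 11.63, 11.50 and 11.97, which do not overlap but missed the test (0.32, adjusted p = 0.0699, limma). HNRNPH1 (1.44 ± 0.21) followed HNRNPD, and HNRNPA2B1 (1.37 ± 0.18) changed in both RIPs.

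Mitosis and cytokinesis genes had 13 of 49 called higher and 2 lower (median 0.39), with the kinetochore gene NDC80 (1.51 ± 0.28), DLGAP5 (1.37 ± 0.26) and TPX2 (0.84 ± 0.15) higher and BIRC5, or survivin, lower (-0.85 ± 0.17). DNA replication genes had 7 of 39 higher and 0 lower (median 0.37), among them PRIM1 (0.83 ± 0.13) and MCM4 (0.77 ± 0.16). DNA repair genes had 6 of 35 higher and 0 lower (0.30), with DDB1 at 0.94 ± 0.15 and MSH6 at 1.07 ± 0.26. Translation factors had 5 of 31 higher and 2 lower (0.37), proteasome subunits 8 of 36 and 1 (0.21), and vesicle traffic genes 7 of 44 and 2 (0.20). EIF3D (0.77 ± 0.13), PSMD1 (1.28 ± 0.24) and the coatomer gene COPG1 (0.95 ± 0.14) were higher, and the SNARE genes VAMP2 (-1.33 ± 0.16) and VAMP3 (-0.95 ± 0.15) lower. Without the third G3BP1 control array the higher calls of several of these lists went up by more than 1.5 times: to 26 for mitosis, 17 for replication, 16 for repair, 14 for translation factors, 14 for the proteasome and 13 for vesicle traffic.

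Genes of the integrated stress response, the programme that eIF2α phosphorylation sets off, leaned towards G3BP1. Of 19 measured, 5 were called lower and 1 higher, with a median interaction of -0.43 (-0.26 without the third G3BP1 control array). The amino acid transporter gene SLC7A5 rose in G3BP1 by 0.74 and did not pass in TIAR (-0.07; interaction -0.81 ± 0.09). PPP1R15B, which encodes a regulatory subunit of the eIF2α phosphatase, moved in opposite directions (-0.96 ± 0.18). The exception was ASNS, the asparagine synthetase gene (0.91 ± 0.17), which rose in TIAR by 0.95 with a G3BP1 change of 0.04. ATF5 was lower (-0.65 ± 0.12), a call that was lost after quantile normalization.

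Apoptosis and p53 genes had 9 of 32 called lower and 0 higher, with a median of -0.28. MDM2, the ubiquitin ligase for p53 (-0.98 ± 0.19), BCL2L1 (-0.80 ± 0.13) and XIAP (-1.13 ± 0.27) fell in TIAR, with no call in G3BP1. BAX was at -1.04 ± 0.23. Both zinc finger lists had a median below 0, with different shares of lower calls. In the list of ZBTB, ZSCAN, ZKSCAN and ZFHX genes 15 of 52 were lower and 0 higher (median -0.23), and 15 fell in TIAR (background 7.15% of genes) while 2 rose in G3BP1 (11.9%). ZFHX3 fell in TIAR by 1.21 and changed by 0.03 in G3BP1 (interaction -1.24 ± 0.10), and ZBTB44 was at -1.18 ± 0.17. Of 305 ZNF genes 29 were lower and 1 higher (9.51% and 0.33%), a share of lower calls under the background of 10.2%, with ZNF236 at -0.97 ± 0.15. The ZNF median was -0.18 (-0.10 without the third G3BP1 control array). An interaction above 0 was found in 27.5% of ZNF genes, 25% of the ZBTB list and 45.3% of all genes. At an unadjusted p under 0.05 (limma), 65 ZNF genes were lower and 3 higher.

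Immediate early genes, which are transcribed within minutes of a stimulus, had 8 of 30 called lower and 0 higher (median -0.22). EGR1, a zinc finger transcription factor (2830861), went from 10.05, 10.12 and 10.04 to 13.21, 13.03 and 13.02 in TIAR. In G3BP1 it went from 8.49, 8.64 and 8.55 to 12.49, 12.44 and 12.32. The rise was very large in both RIPs and larger in G3BP1, with an interaction of -0.85 ± 0.13 (adjusted p = 0.000446, limma). FOS, a subunit of AP-1 (3544525), went from 7.94, 7.83 and 8.08 to 8.35, 8.53 and 8.49 in TIAR and from 7.84, 8.07 and 8.31 to 10.12, 10.23 and 9.80 in G3BP1. It started at like signals in the RIPs and ended far higher in G3BP1, with an interaction of -1.47 ± 0.18. In input FOS rose by 1.13, which lies between the RIP changes, and EGR1 by 3.79.

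AU-rich cytokine and growth factor mRNAs, whose decay elements TIAR family proteins can bind, had 4 of 22 called lower (18.2%) and 0 higher (median -0.17), a share near the 17.0% of genes at or above the median signal. LIF, a cytokine of the IL-6 family, rose in G3BP1 by 1.05 and changed by 0.01 in TIAR (interaction -1.04 ± 0.14). CXCL8 (-1.01 ± 0.25) and CCL2 (-0.56 ± 0.15) rose in G3BP1 with no TIAR call. The CXCL8 rise was not called without the third G3BP1 control array (adjusted p = 0.129, limma), and the CCL2 interaction was not called in a fit of the 12 RIP arrays alone. In the list of the LIF and oncostatin receptor axis, 2 of 10 were lower and 0 higher (median -0.12). Its receptor gene LIFR had an interaction of -1.28 ± 0.43 (adjusted p = 0.0656, limma).

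Some RNAs that are not translated in the cytosol were among those that moved towards G3BP1. Few could be read: 2 of 11 listed nuclear long noncoding RNAs and 2 mitochondrial RNAs were measured. MALAT1, a nuclear long noncoding RNA (7385515), had TIAR signals of 11.27, 11.10 and 10.92 in control cells and 11.41, 11.35 and 11.68 after arsenite, a change of 0.38 that was not called although the arrays did not overlap. In G3BP1 it rose from 7.93, 8.15 and 6.52 to 9.68, 9.32 and 9.68. The lowest value is on the array that stood apart, and the interaction of MALAT1 was -1.64 ± 0.42 with it and -1.14 without it. TUG1, the other measured nuclear long noncoding RNA of the list, was at -0.45 ± 0.11. ND5, an mRNA encoded in the mitochondrial genome (4037669), stayed between 13.58 and 13.72 on all TIAR arrays and rose in G3BP1 from 11.41, 11.65 and 11.29 to 13.04, 12.73 and 13.22. Its stressed and control arrays overlapped in TIAR and were far apart in G3BP1 (interaction -1.47 ± 0.16), with an input change of -0.01. ND6, the other mitochondrial RNA measured, was not called (-0.31 ± 0.65), and its mean RIP signal lay below the median of all transcript clusters.

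**Figure D4:**
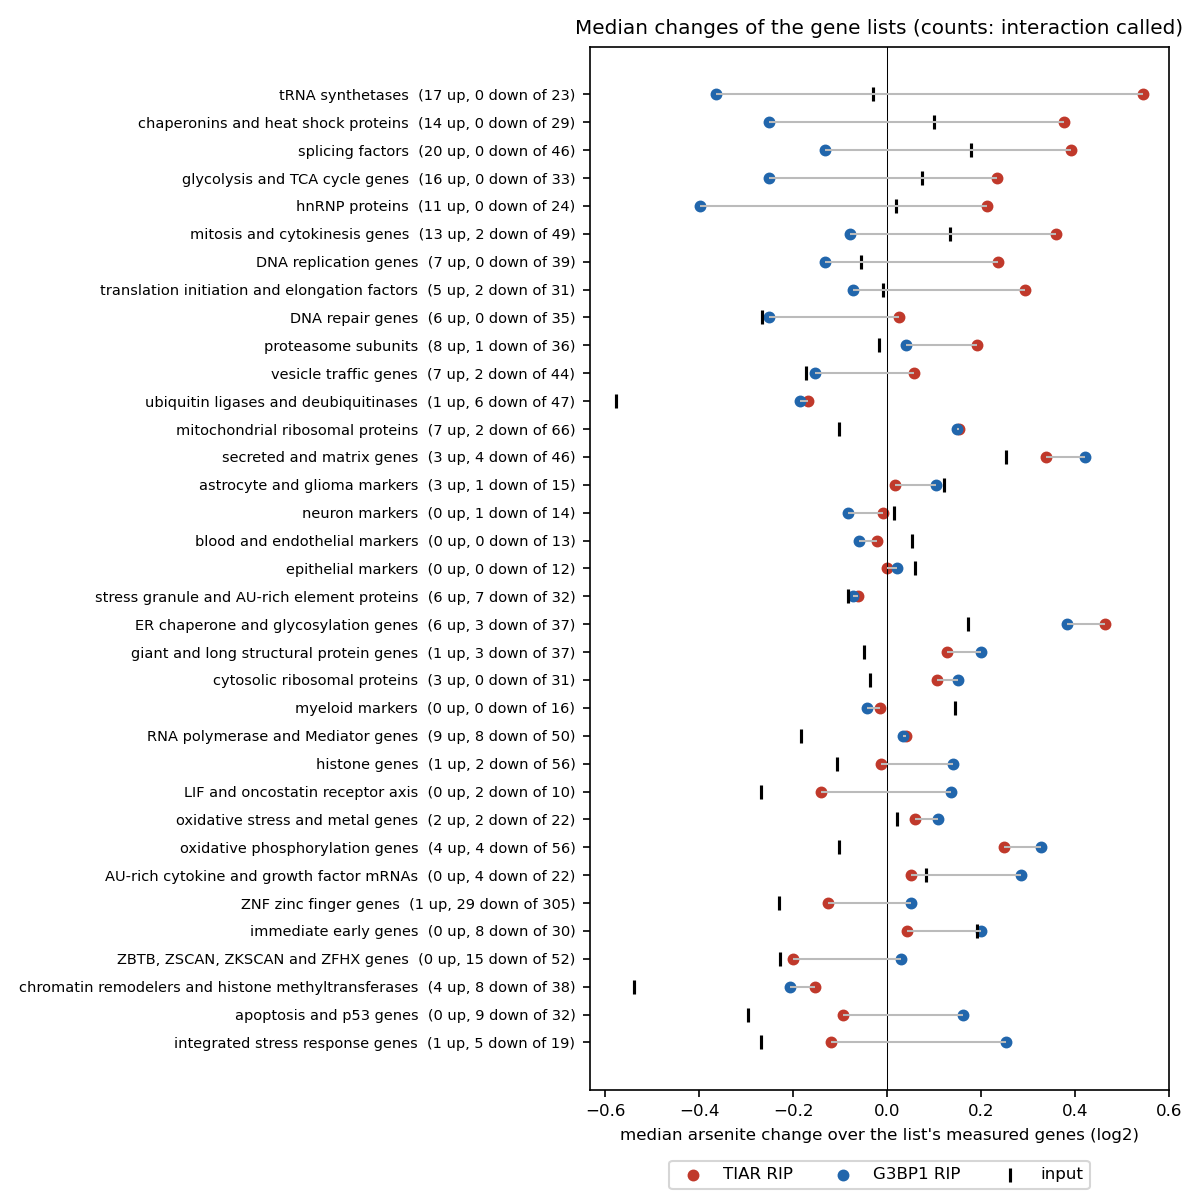
Median stress change (horizontal axis, log2) of the 35 gene lists with 10 or more measured genes in the TIAR RIP, the G3BP1 RIP and input, ordered by median interaction; up and down count members whose interaction was called higher or lower. The tRNA synthetases at the top have medians of 0.54 in TIAR and -0.36 in G3BP1, and the integrated stress response genes at the bottom -0.12 and 0.25.

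Chromatin remodelers and histone methyltransferases were split, with 4 of 38 called higher and 8 lower and a median interaction of -0.27. KMT2A (-1.01 ± 0.14) rose in G3BP1, while EZH2 (0.92 ± 0.16) and the remodeler SMARCA4 (0.79 ± 0.11) were higher. RNA polymerase and Mediator genes had 9 of 50 higher and 8 lower, with POLR2B at 1.52 ± 0.27, POLR2F at -0.87 ± 0.12 and MED13L at -0.75 ± 0.14. Ubiquitin ligases and deubiquitinases had 1 of 47 higher, USP11 (1.04 ± 0.12), and 6 lower, with a median of 0.14, so the calls and the median had different signs. Oxidative stress and metal genes had 2 of 22 in each direction, with SOD1, a superoxide dismutase, at 1.38 ± 0.18 and BACH1, a repressor of antioxidant genes, at -1.62 ± 0.23. Genes for stress granule and AU-rich element proteins had 6 of 32 higher and 7 lower, among them VCP (0.92 ± 0.14) and ZFP36L1 (-0.83 ± 0.15).

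The remaining lists had calls in both directions or few calls. Secreted and matrix genes rose in both, 26 of 46 in TIAR (background 6.15% of genes) and 27 in G3BP1 (11.9%). In input 20 of the 46 rose, where 296 of all 14232 genes did. The list had 3 interactions called higher and 4 lower. TGFBI (0.87 ± 0.13) was higher and LOXL1 (-0.77 ± 0.12) lower. ER chaperone and glycosylation genes had 6 of 37 higher and 3 lower, with HSPA5, the ER Hsp70, rising in TIAR by 1.22 and not called in G3BP1 (0.17). Cytosolic ribosomal protein genes had 3 of 31 higher and 0 lower, with RPL8 at 0.67 ± 0.09. Oxidative phosphorylation genes had 4 of 56 in each direction and mitochondrial ribosomal protein genes 7 of 66 higher and 2 lower. Histone genes had 1 of 56 higher and 2 lower, and giant and long structural protein genes 1 of 37 and 3. The medians of the ER, ribosomal, mitochondrial ribosomal, histone, polymerase, giant gene, stress granule and oxidative stress lists changed sign in at least 1 alternative, so no direction is given for them. The higher calls without the third G3BP1 control array went to 23 for mitochondrial ribosomal proteins, 14 for polymerase and Mediator genes, 13 for oxidative phosphorylation, 12 for stress granule proteins, 9 for ZNF genes and 7 each for ubiquitin and for matrix genes. They went to 5 each for ribosomal, giant and oxidative stress genes and to 4 for histones. Among markers, 3 of 15 astrocyte and glioma genes were higher and 1 lower, AXL (-0.70 ± 0.09), and 1 of 14 neuron genes was lower. None of the 7 oligodendrocyte, 16 myeloid, 12 epithelial and 13 blood and endothelial markers was called in limma. At an unadjusted p under 0.05 there was 1 lower oligodendrocyte marker, CNP (-0.30 ± 0.13), and 1 higher epithelial marker, KRT8 (0.38 ± 0.13), with 0 in the other lists.

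Large interactions also came from a change in 1 RIP. GTF3C3, a subunit of the RNA polymerase III factor TFIIIC (1.83 ± 0.36), the mitochondrial single-stranded DNA-binding protein SSBP1 (1.80 ± 0.38), the threonyl-tRNA synthetase TARS1 (1.74 ± 0.25) and the cleavage factor CPSF3 (1.74 ± 0.35) rose in TIAR, with G3BP1 changes of -0.60, -0.53, -0.43 and -0.56 that were not called. Without the third G3BP1 control array the falls of GTF3C3, SSBP1 and TARS1 in G3BP1 were called, as were the rise of SNW1 and the fall of EI24 in TIAR. The TIAR changes of SNW1 and EI24 had the same size in both fits, and the shared estimate of spread differed. SNW1, a spliceosome and transcription cofactor (1.78 ± 0.22), fell in G3BP1 by 1.31 and missed the test in TIAR. On the side of G3BP1, SFT2D2 (-1.66 ± 0.30), ANAPC11 (-1.71 ± 0.45) and EI24 (-1.76 ± 0.33) rose there, and PSD3 (-1.72 ± 0.39), NBR2 (-1.74 ± 0.31) and TAX1BP3 (-1.81 ± 0.43) fell in TIAR. Without the third G3BP1 control array these interactions were smaller and still called. They were -1.34 for SFT2D2, -1.22 for ANAPC11 and -1.38 for EI24. For PSD3, NBR2 and TAX1BP3 they were -1.23, -1.35 and -1.26. The PSD3 change in G3BP1 was 0.32 with that array and -0.17 without it, not called in either case. The interactions of GTF3C3, SSBP1, TARS1, CPSF3 and SNW1 were larger without it. The interaction of ANAPC11 was not called without the first TIAR arsenite, the third TIAR arsenite or the second TIAR control array.

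A called interaction together with a called change in the same direction in both RIPs was rare. Transcript clusters called in the same direction in both RIPs without a called interaction are not counted here. It was found for 26 transcript clusters that rose more in TIAR, 32 that rose more in G3BP1, 10 that fell more in TIAR and 1 that fell more in G3BP1. The lysosomal protease LGMN (1.26 in TIAR, 0.36 in G3BP1), the complement regulator CD55 (1.27 and 0.47), LOXL2 (1.01 and 0.30), the membrane protein insertase subunit EMC1 (1.31 and 0.61) and PSME1 (1.11 and 0.36) rose more in TIAR. The G3BP1 rises of CD55 and PSME1 were not called without the third G3BP1 control array. Besides FOS and EGR1, the cell surface protein THY1 (0.31 and 1.01), the peptide hormone ADM (0.52 and 1.16) and TMEM138 (0.47 and 1.11) rose more in G3BP1. The interaction of ADM was not called without the first TIAR arsenite, first TIAR control or second G3BP1 arsenite array, nor that of TMEM138 without the third TIAR arsenite array. The histone methyltransferase KMT2D (-0.95 and -0.34), TCF20 (-0.93 and -0.39), MPRIP (-1.04 and -0.55) and PBDC1 (-0.91 and -0.39) fell more in TIAR. CREBBP, an acetyltransferase gene, also fell in both (interaction -0.53 ± 0.12) and kept its call in all 22 alternatives. KMT2D, TCF20, MPRIP and PBDC1 lost the interaction call after quantile normalization, and PBDC1 also with each of 5 single arrays left out in turn. MYH9, a nonmuscle myosin, fell more in G3BP1 (-0.22 and -0.71).

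The mRNAs of the antibody targets and their relatives were read as well. G3BP1 mRNA (2835960) was at 12.30, 12.17 and 12.19 in TIAR controls and 12.64, 12.45 and 12.77 after arsenite, and in its own RIP it went from 12.61, 12.77 and 12.21 to 12.25, 12.25 and 12.11. The single changes of 0.40 and -0.33 were not called, and their difference was (0.73 ± 0.18, adjusted p = 0.0128, limma). Without the third G3BP1 control array, the lowest control of its RIP, the fall of G3BP1 mRNA in its own RIP was called (-0.49, adjusted p = 0.00515). TIAL1 had an interaction of -0.12 ± 0.22 (adjusted p = 0.858). TIA1, a close relative of TIAL1 (0.71 ± 0.29, adjusted p = 0.131), and G3BP2 (0.55 ± 0.21, adjusted p = 0.116) were not called, and each of them was called in 6 of the 22 alternative settings. The mitosis genes ECT2 (0.76 ± 0.35) and AURKB (0.08 ± 0.12) were not called.

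Of the single RIP arrays, 1 moved the number of transcript clusters with opposite changes most. Without the third G3BP1 control array, 375 rose in TIAR and fell in G3BP1 (1.7%) and 294 did the reverse (1.34%). Of the 165 found with all arrays in the first class, 159 were among the 375, which is 96.4% of the shorter list and 42.4% of the longer. Of the 264 in the reverse class 210 were kept (79.5%), which is 71.4% of the 294. Leaving out any other RIP array gave 104 to 149 in the first class and 162 to 272 in the reverse class.

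**Figure D5:**
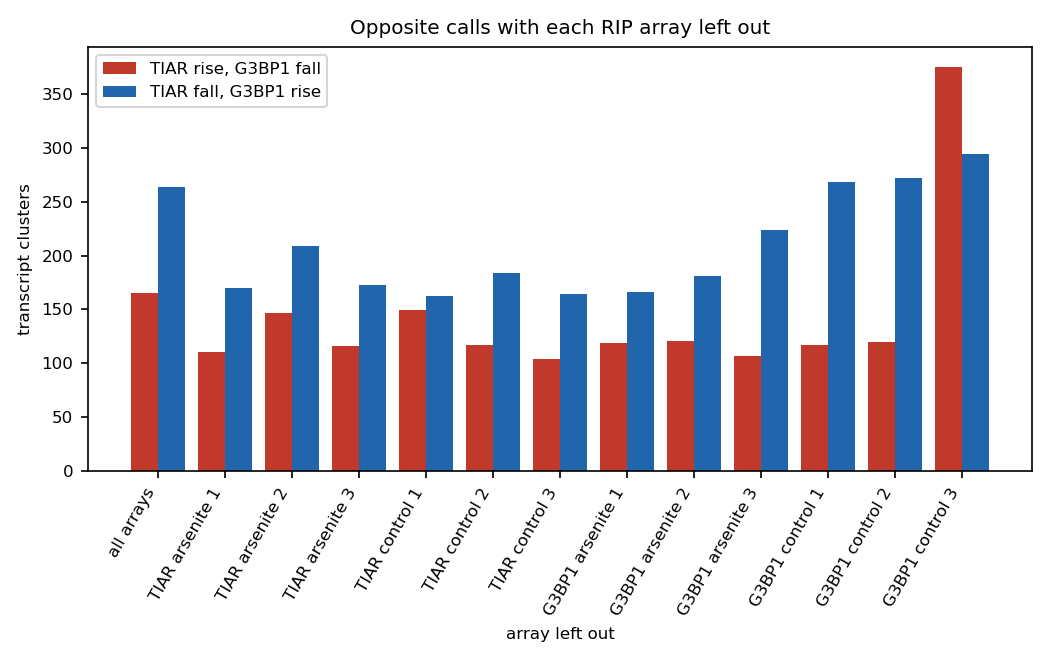
Number of transcript clusters (vertical axis, from 0) called in opposite directions with all 18 arrays and with each of the 12 RIP arrays left out in turn. The red bar reaches 375 without the third G3BP1 control array and lies between 104 and 149 without any other RIP array.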

How the data were processed

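The series measured RNA of U251-MG cells on 18 Affymetrix exon arrays, 3 in each of 6 groups. The deposited values are log2 signals, 1 per transcript cluster, that the authors made with RMA in Affymetrix Expression Console, per the submitters' processing notes. RMA corrects background, equalises the arrays' distributions and combines probes, so a value is relative to the other RNA on its array. Not given in the sources used here are the version, the probe-set level and which arrays RMA took together. Signal near background cannot be told from absence, and 3 arrays a group limit the precision.

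The 18 arrays entered a linear model of 6 group means (lmFit and eBayes, limma 3.58.1, R 4.3.3), with no filter and no block. The interaction contrast and the change within each RIP and in input were tested two-sided and adjusted by Benjamini-Hochberg over 22011 transcript clusters (threshold 0.05). Each transcript cluster had 12 residual and 2.61 prior degrees of freedom. Errors of changes are standard errors of the fit. The procedure was tested on simulated data.

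The platform table gave 1 symbol for 14432 transcript clusters (65.6%), several for 2408 and none for 5171. Of the 14432, 14404 matched RefSeq and 0 symbols changed. A gene is represented by its brightest transcript cluster. Genes named for the size of their changes had a mean RIP signal at or above the median of 7.93. They were the 12 with the largest smaller change per opposite class without array overlap, the 10 largest interactions each way, and the 5 largest per same-direction group. From each of 38 lists came up to 4 members with the smallest interaction p, and 8 genes were always taken. No condition on signal was set for these. Others are said to be picked after their values were seen. The members and lists were chosen with earlier results of these data known.

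Same-numbered arrays of different groups correlated in their deviations at -0.31 to 0.42, over 0.1 in 9 of 18 pairs. Within number 1 every pair was positive, from 0.15 to 0.35. The main fit did not take the numbers as pairs, and a block on the number was run as an alternative. The alternatives were a replicate block, the 12 RIP arrays alone, array weights, a robust prior with an intensity trend, filters on the lowest 25% and 50%, 3 scalings, a minimum change of 0.5 and arrays left out. A planned description of protein lengths was not run, since no protein table was used here.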

Additional observations from a re-analysis of the deposited data

Results flagged for a closer look

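The stress change differed between the RIPs by a test of the difference itself for 1112 transcript clusters called higher and 1882 called lower, of which 165 rose in TIAR and fell in G3BP1 and 264 did the reverse. Among the first, the interaction was 2.29 for EXOSC9, 2.15 for IK, 1.92 for SSB, 1.86 for AATF, 1.73 for MTREX, 1.68 for NASP, 1.61 for HSPH1, 1.58 for TAF15, 1.57 for LARS1, 1.56 for OAT, 1.55 for PAK1IP1 and 1.39 for NUP107. Among the reverse, it was -2.04 for POMK, -1.90 for LINC00052, -1.82 for PLAGL2, -1.73 for TMTC1, -1.64 for NREP, -1.55 for SPRING1, -1.49 for TET1, -1.46 for UHMK1, -1.40 for ZNF652, -1.38 for RASSF8, -1.30 for MBD6 and -1.25 for USP12. These 24 genes were chosen for opposite changes without overlap of arrays, so their directions are a description. No rule for an outlying value within a group was applied to groups of 3 arrays.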

How the results depend on the processing

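Of 163 named genes with a called interaction, 138 stayed called in every alternative that tested them (22, or 21 for ZBTB34), 25 lost the call in at least 1, and 0 reversed. With the replicate number as a block the interaction was higher for 969 and lower for 1691 transcript clusters, and 135 and 219 moved in opposite directions; the block moved no count by over 1.5 times, and 4 of 12 RIP arrays correlated best with their own number. Array weights gave 3357 and 2992 interactions, 2922 rises and 2563 falls in TIAR, 3386 falls in G3BP1, and 860 and 605 opposite moves (487 of the latter lower in input). Median centring gave 1712 higher interactions, 1919 falls in TIAR, 1759 falls in G3BP1, and 356 and 424 opposite moves. Quantile normalization gave 1915, 2017, 2002, 456 and 445 for the same counts. Cyclic loess gave 2044 higher interactions, 2161 rises in TIAR, 1853 falls in G3BP1 and 522 that rose in TIAR and fell in G3BP1. A minimum change of 0.5 left 736 falls in TIAR, 1491 rises and 556 falls in G3BP1, and 74 and 50 opposite moves (36 lower in input). Without the third G3BP1 control and first input arsenite arrays there were 2955 higher interactions, 2561 rises and 2496 falls in TIAR, 3016 falls in G3BP1, and 717 and 474 opposite moves (383 lower in input). Leaving out single RIP arrays gave 844 to 2194 higher and 1323 to 2063 lower interactions, 892 to 1935 rises and 799 to 1866 falls in TIAR, 1490 to 2430 rises and 536 to 2105 falls in G3BP1, 104 to 375 and 162 to 294 opposite moves, and 145 to 263 of the latter lower in input. The highest value came without the third G3BP1 control array, except 2063 without the first and 2430 without the second G3BP1 control array. A TIAR change uses no G3BP1 array, so its size stays the same when a G3BP1 array is left out. Its call can still change, because all groups share 1 estimate of spread. Counts of list members moved in 355 of 1748 comparisons and list medians in 26 of 874. The causes were not tested. The 3 arrays a group and signals near background limit small changes.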
